A study of Mus musculus with 6 samples.

Results

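Haemoglobin is the oxygen carrier of red cells, and the genes described here encode its chains and the enzyme that starts the synthesis of its heme group. The 9 genes were the adult alpha chains Hba-a1 and Hba-a2, the embryonic alpha-like chain Hba-x, the adult beta chains Hbb-b1 and Hbb-b2, the embryonic beta-like chains Hbb-bh1 and Hbb-y, and the aminolevulinate synthases Alas1 and Alas2. They were chosen by name, from knowledge of the intensities of these same samples in the only contrast of the series, so their differences between the groups are descriptions and not tests. Every probe set annotated to any of the 9 genes was taken, which gave 18 of 45037 probe sets. Of these, 14 were annotated to 1 gene and 4 to several. Hbb-b1 was read by a shared probe set only.

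Juxtaglomerular (JG) cells secrete renin from the wall of the kidney's afferent arteriole. The 3 JG samples were flow-sorted as YFP+ cells (yellow fluorescent protein) from adult mice of strain C57BL6 and genotype Ren1c YFP, in which the reporter marks renin-expressing cells. The 3 samples of renal mesenchymal stromal cells (MSC) came from the same strain and genotype, were sorted by the surface antigen CD44 and were then grown to confluence in medium with serum. The labels repeat that growth medium on the JG samples, so whether JG cells were also cultured is not settled. RNA of each sample was hybridised to 1 Affymetrix mouse array, and nothing in the labels ties them to separate animals or separate cultures. P-values therefore measure only the spread between these samples, which may be technical.

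A haemoglobin molecule joins alpha-like and beta-like chains, each around a heme. Mouse embryos use Hba-x, Hbb-y and Hbb-bh1 in primitive red cells and change to the adult genes later. C57BL/6 mice carry the adult beta genes named Hbb-bs and Hbb-bt, while Hbb-b1 and Hbb-b2 are the adult pair of other mouse strains. Heme synthesis begins in mitochondria, where Alas1 serves nearly all tissues and Alas2 serves the developing red cell. Mature red cells have lost their nucleus, but young ones still carry globin transcripts.

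The sequences just before the start sites of the adult chain genes and of both synthases are shown because the adult beta and shared adult alpha probe sets were high in the same samples, and because the synthases, which run the same reaction, serve different tissues. They come from a table of RefSeq promoters, build GRCm38.p6, which was matched for Hba-a1, Hba-a2, Hba-x, Hbb-y, Alas1 and Alas2 of the 9 genes and for Hbb-bs and Hbb-bt. Each is the 120 bases before the annotated start site, 5′ to 3′ on the gene's strand, and for Alas1 the outer of 2 annotated starts. Capitals mark letters of the motif CACCC, the motif CCAAT, the motif TATAA or a GATA-type motif, searched on both strands. The GATA-type motifs were spelled AGATAA, with the variant AGATAG, the variant TGATAA and the variant TGATAG.

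Hba-a1, chr11:32283552-32283671, plus strand: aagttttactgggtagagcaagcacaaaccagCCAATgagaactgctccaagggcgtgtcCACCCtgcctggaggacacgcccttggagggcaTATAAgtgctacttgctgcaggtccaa
Hba-a2, chr11:32296372-32296491, plus strand: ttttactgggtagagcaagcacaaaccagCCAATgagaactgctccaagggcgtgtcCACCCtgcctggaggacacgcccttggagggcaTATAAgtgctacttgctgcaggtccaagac
Hbb-bs, chr7:103827929-103828048, minus strand: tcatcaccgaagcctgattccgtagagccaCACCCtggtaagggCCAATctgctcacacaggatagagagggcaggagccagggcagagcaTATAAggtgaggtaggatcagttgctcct
Hbb-bt, chr7:103813924-103814043, minus strand: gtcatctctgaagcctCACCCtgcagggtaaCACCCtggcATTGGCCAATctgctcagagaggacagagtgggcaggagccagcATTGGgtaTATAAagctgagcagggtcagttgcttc
Alas2, chrX:150547297-150547416, plus strand: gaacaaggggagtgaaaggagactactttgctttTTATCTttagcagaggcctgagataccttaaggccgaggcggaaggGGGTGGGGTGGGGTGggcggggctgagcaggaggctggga
Alas1, chr9:106247955-106248074, minus strand: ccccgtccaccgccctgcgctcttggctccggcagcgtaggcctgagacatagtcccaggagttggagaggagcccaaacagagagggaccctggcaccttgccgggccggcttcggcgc

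The motif CACCC, the motif CCAAT and the motif TATAA were all present before the start of Hba-a1, Hba-a2, Hbb-bs and Hbb-bt. In Hbb-bs they began at positions -90, -76 and -29 from the start site, and in Hba-a1 at -60, -88 and -27. Alas2 held 1 GATA-type match and 3 abutting CACCC matches, all on the opposite strand, and Alas1 held none of the motifs. The stretches of the embryonic chains Hba-x and Hbb-y, whose probe sets were near the floor, are not printed. Hba-x held the motif CACCC, the motif TATAA and a GATA-type match but no CCAAT. Hbb-y held the motif CACCC and the motif CCAAT but no TATAA, so each of these motifs also occurred outside the adult chains. Of 32851 RefSeq promoters, 31.7% held the motif CACCC in the same 120 bases, 21.3% held the motif CCAAT, 11.8% held the motif TATAA and 12.8% held a GATA-type motif. The printed Hba-a1 and Hba-a2 stretches aligned with 117 identical bases of 120, offset by 3 bases at the start site, and those of Hbb-bs and Hbb-bt with 91. These matches describe letters in a window and not binding.

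Intensities below are the deposited linear values, and 1 appeared as a floor in 5 of the values of these probe sets. Each difference was taken as JG minus MSC with its SE, after log2(intensity + 16), in 1 limma fit of all 45037 probe sets. Where the dimmer group lies below 16, such a difference understates the change. Levels of different probe sets are not set against each other, because each hybridises with its own efficiency. A probe set or gene is called where its limma adjusted p (Benjamini-Hochberg) is under 0.05. In sorted or cultured cells, fewer cells of a type and less RNA per cell cannot be told apart.

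The adult beta chains were bright in all JG samples and near the floor in all MSC samples. The probe set shared by Hbb-b1, Hbb-b2, Hbb-bs and Hbb-bt (1417184_s_at) read 1.6, 2.98 and 7.26 in MSC samples 1 to 3 and 457.95, 1350.57 and 1418.6 in JG samples 1 to 3. The groups lay far apart, and JG sample 1 was the lowest of its group. The mean was 1076 ± 536 in JG and 3.95 ± 2.95 in MSC (SD, n = 3 each), a difference of 5.62 ± 0.47.

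Hbb-b2 had 2 probe sets of its own, and both gave the same picture. The first (1427866_x_at) read 4.03, 1 and 1 in MSC and 1002.65, 4956.94 and 4842.43 in JG, a difference of 7.34 ± 0.64. The second (1427865_at) read 4.79, 1 and 1.41 in MSC and 110.81, 989.13 and 712.55 in JG, a difference of 4.63 ± 0.77. In both, every MSC sample was under 5 and JG sample 1 lay well under the other JG samples. Since C57BL/6 mice carry Hbb-bs and Hbb-bt, the annotation of these probe sets to Hbb-b2 alone does not say which adult beta gene was read.

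The adult alpha chains followed the beta chains wherever a probe set was shared by Hba-a1 and Hba-a2. The first of the 3 shared probe sets (1452757_s_at) read 14.79, 8.12 and 9.54 in MSC and 228.24, 744.58 and 587.01 in JG, a difference of 4.18 ± 0.45. Another (1428361_x_at) read 3.58, 10.68 and 9.64 in MSC and 146.65, 957.19 and 463.83 in JG, a difference of 4.16 ± 0.64. The last (1417714_x_at) was dim throughout, with 7.33, 6.76 and 15.6 in MSC and 25.84, 114.41 and 36.79 in JG, a difference of 1.37 ± 0.46. In all 3, each JG sample exceeded each MSC sample and JG sample 1 was the lowest of its group.

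The probe sets annotated to a single adult alpha gene did not follow the shared ones. Hba-a1 alone (1453574_at) read 1.75, 1.59 and 2.58 in MSC and 2.44, 1.4 and 3.08 in JG, which is near the floor on every array. Hba-a2 alone (1427219_at) read 2049.25, 2875.97 and 3237.4 in MSC and 1990.46, 806.07 and 471.62 in JG. This probe set was the only one for an adult chain that was bright in MSC, and its difference of -1.53 ± 0.54 points the other way from all shared alpha probe sets. JG sample 1 lay just below the lowest MSC sample there, and without it the difference was -2.09. The 3 shared probe sets, which also cover Hba-a2, read at most 15.6 in those MSC samples. A gene's value taken from its brightest single-gene probe set would thus give Hba-a2 as an MSC-bright gene. Probe sequences were not used here, so what this probe set hybridises with was not tested.

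**Figure D1:**
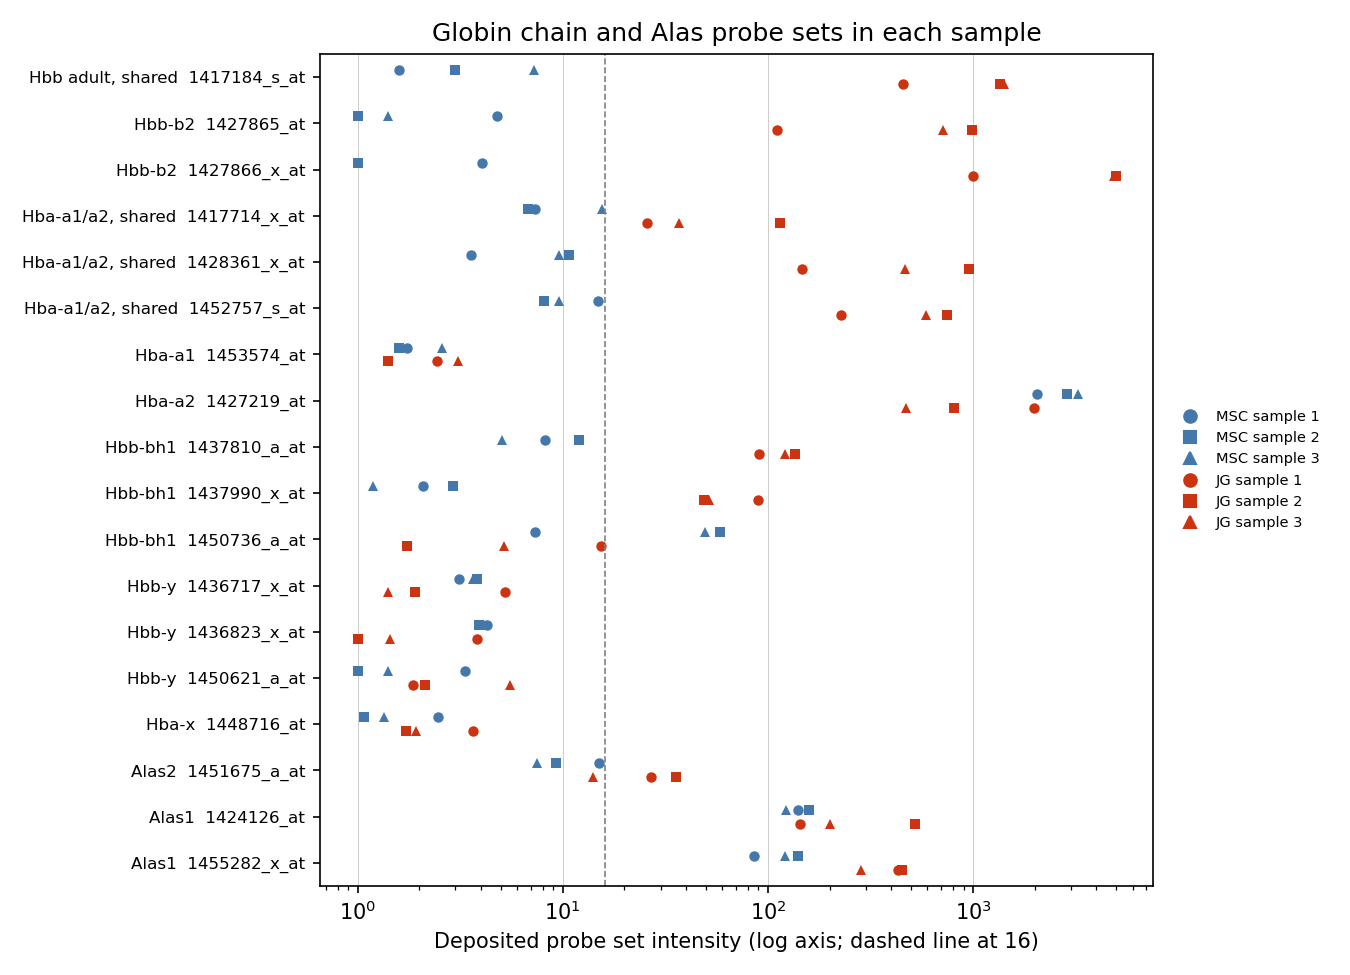
Deposited intensity of each of the 18 probe sets on a log axis, with 1 point per sample: blue for MSC, red for JG, and the shape giving the sample number. The adult beta probe sets and the shared Hba-a1/Hba-a2 probe sets have all MSC points at 15.6 or less and all JG points at 25.84 or more, with the JG sample 1 circle lowest in JG, whereas Hba-a2 alone is brighter in MSC and Hba-a1 alone, Hbb-y and Hba-x stay under 16.

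The JG samples differed among themselves in the adult chains. Over the 6 probe sets of the beta and shared alpha chains, JG sample 1 was the lowest JG sample in 6 of 6. JG sample 2 exceeded JG sample 1 by 2.95-fold to 8.93-fold, and JG sample 3 exceeded it by 1.42-fold to 6.43-fold. Over all 45037 probe sets, JG sample 1 was the lowest of the 3 in 39.3%. Without JG sample 1 the difference of the shared beta probe set was 6.14 instead of 5.62, and that of the brighter Hbb-b2 probe set was 8.10 instead of 7.34. The 6 probe sets overlap in the transcripts they read, so they are not independent readings of the samples.

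Of the embryonic chains, Hba-x and Hbb-y lay near the floor in both groups, and Hbb-bh1 gave no single answer. Hba-x had 1 probe set (1448716_at), with 2.46, 1.08 and 1.35 in MSC and 3.64, 1.73 and 1.93 in JG. The 3 probe sets of Hbb-y ranged from 1 to 4.25 in MSC and from 1 to 5.56 in JG. The second of them (1436823_x_at) had every JG value, the highest 3.82, under the lowest MSC value of 3.91. These values are all at the dim end of the array.

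Hbb-bh1, an embryonic beta-like gene, had 3 probe sets that disagreed. The first (1437810_a_at) read 8.16, 12.07 and 5.07 in MSC and 90.27, 135.84 and 121.89 in JG, a difference of 2.43 ± 0.24. The second (1437990_x_at) read 2.08, 2.91 and 1.19 in MSC and 89.21, 49 and 51.87 in JG, a difference of 2.10 ± 0.26. The last (1450736_a_at) read 7.35, 58.18 and 49.14 in MSC and 15.4, 1.74 and 5.19 in JG, a difference of -1.09 ± 0.50. The first and second separated the groups with JG above MSC, and the last overlapped, with its highest values in MSC samples 2 and 3. JG sample 1 was the highest JG sample in the second and in the last, as in the Hba-a2 probe set but unlike in the adult beta and shared alpha probe sets. Which transcript each reads was not tested.

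Alas1, the synthase used by nearly all cells, was measurable in every sample. The first probe set (1455282_x_at) read 85.89, 139.84 and 121.2 in MSC and 429.53, 451.15 and 283.94 in JG, with means of 116 ± 27.4 and 388 ± 90.9 and a difference of 1.61 ± 0.29. The groups did not overlap there. The other (1424126_at) read 140.07, 158.27 and 122.03 in MSC and 143.4, 519.89 and 200.65 in JG, a difference of 0.77 ± 0.47, and JG sample 1 lay within the MSC range. It was 0.26 with JG sample 2 left out and 1.13 with JG sample 1 left out. Both probe sets had the higher mean in JG, and they disagreed on JG sample 1.

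Alas2, the erythroid synthase, stayed dim. Its probe set (1451675_a_at) read 15.09, 9.23 and 7.5 in MSC and 27.07, 35.63 and 14.09 in JG, a difference of 0.62 ± 0.28. The groups overlapped because JG sample 3 fell under the highest MSC sample. The shared beta probe set was bright in JG sample 3 (1418.6) while the Alas2 intensity of that sample was the lowest of the JG group.

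Across the 18 probe sets, 8 were called higher in JG and 0 higher in MSC, while 4.23% of all probe sets were called higher in JG and 5.57% higher in MSC. Every JG sample exceeded every MSC sample in 9 of the 18, against 16.1% of all probe sets, and lay below in 2, against 18.1%. Because the 9 genes were proposed with this contrast known, nothing is read from these shares. The 8 were the shared beta probe set, both of Hbb-b2, 2 of the 3 shared alpha probe sets, 2 of Hbb-bh1 and 1 of Alas1. Leaving out 1 sample at a time, the calls of the shared beta probe set, 1 of Hbb-b2, 1 shared alpha and both of Hbb-bh1 stood in 6 of 6 fits. The Alas1 call was lost when a single MSC sample was left out, with a pseudocount of 1, and with a robust, intensity-dependent variance prior. The calls of the second Hbb-b2 and the other shared alpha probe set were lost when a single MSC sample, or JG sample 3, was left out. The second Hbb-b2 call was also lost with a pseudocount of 64. Without JG sample 1 the Hba-a2 probe set was called higher in MSC, as it was with array weights, and the dim shared alpha probe set was called higher in JG.

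The enzymes after aminolevulinate synthase carry the pathway on to heme, and 1 of them passed the threshold. Of the 7 enzymes listed, 6 were measured by a probe set of their own (each gene taken at its brightest probe set), and 1 was called higher in JG and none in MSC. In 3 (Alad, Uros and Cpox) every JG sample exceeded every MSC sample, as in 20.2% of 18193 genes, and in 0 every JG sample lay below, against 18.7%. For comparison, 6.65% of 18193 genes were called higher in JG and 6.13% higher in MSC. Cpox, which acts on coproporphyrinogen, read 372.96, 647.26 and 667.51 in MSC and 2397.53, 1329.98 and 1553.17 in JG (1.62 ± 0.35, limma adjusted p = 0.0388). Its other 2 probe sets were not called. The call was lost with median centring, a pseudocount of 1, and when a single MSC sample, or JG sample 3, was left out.

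The other enzymes were not called. Alad, which joins the products of the synthase, read 84.45, 138.57 and 143.81 in MSC and 621.19, 241.97 and 721.28 in JG without overlap (1.87 ± 0.46, limma adjusted p = 0.0563). Alad was called with quantile normalization, array weights, dim probe sets left out, 1 probe set per gene, or JG sample 2 left out, and its limma adjusted p with 1 sample left out ran from 0.0135 to 0.178. Uros, which closes the porphyrin ring, had means of 201.6 ± 39.5 in JG and 127 ± 9.67 in MSC (0.60 ± 0.23, limma adjusted p = 0.157). Urod had 816 ± 413 and 817 ± 109 (-0.11 ± 0.38), and Ppox 94.7 ± 41.5 and 112 ± 38.2 (-0.22 ± 0.36). Fech, which inserts iron to complete heme, had 1515 ± 530.3 in JG and 1158 ± 394 in MSC (0.36 ± 0.39). The other probe sets of these enzymes were not called and did not all go along. They gave 0.18 for Alad, 0.12 for Uros, -1.09 for Urod, and -0.27 and 0.66 for Ppox. Those of Fech gave -0.56, 0.37 and 0.74, and both the 0.37 and the 0.74 probe set had every JG sample above every MSC sample. The 0.37 probe set was under 16 in every sample. The list's median difference was 0.48, beside 0.07 for all genes.

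Iron uptake and mitochondrial transport for heme held more calls. Of 15 listed genes 13 were measured, 4 were called higher in JG and none higher in MSC, with a median difference of 0.59. The shares of all 18193 genes were 6.65% and 6.13%, with a median of 0.07. Abcb6, a porphyrin transporter, read 69.52, 95.64 and 127.58 in MSC and 837.09, 1086.71 and 614.65 in JG (2.92 ± 0.32, limma adjusted p = 0.00428). Tfrc, the transferrin receptor that brings iron into cells, read 526.29, 470.93 and 349.48 in MSC and 1480.07, 1848.51 and 2077.53 in JG (1.97 ± 0.26, limma adjusted p = 0.00816). Clpx, a mitochondrial unfoldase that acts on aminolevulinate synthase, had 647 ± 65.8 in JG and 184 ± 23.2 in MSC (1.73 ± 0.21, limma adjusted p = 0.00681). Of its 2 probe sets, 1 was called.

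Slc25a39, a mitochondrial carrier needed for heme synthesis, had 6421 ± 291 in JG and 2068 ± 318 in MSC, and 4 of its 5 probe sets were called (1.64 ± 0.22, limma adjusted p = 0.00846). It lost the call without MSC sample 2 (limma adjusted p = 0.0512), and with a pseudocount of 1, and the other 3 kept theirs with any 1 sample left out. The erythroid iron importer of mitochondria Slc25a37 (1.23 ± 0.45) and its partner Abcb10 (-1.45 ± 0.40) were not called and stood on opposite sides of 0. Both were named after their values were seen.

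Among 8 listed regulators of Alas1 transcription and turnover, 4 were called higher in JG and 1 higher in MSC, beside 6.65% and 6.13% of 18193 genes. Ppargc1a, a coactivator that induces Alas1 in liver, read 1.97, 11.67 and 3.45 in MSC and 803.1, 283.16 and 906.11 in JG (4.84 ± 0.48, limma adjusted p = 0.00312), and all 5 of its probe sets were called. Nr1h4, the bile acid receptor, read 9.22, 16.84 and 11.6 in MSC and 287.19, 113.97 and 197.64 in JG (2.84 ± 0.35, limma adjusted p = 0.00684). These 2 kept the call with any 1 sample left out.

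Foxo1, a transcription factor of fasting, had 1207 ± 463 in JG and 315 ± 94.0 in MSC (1.86 ± 0.37, limma adjusted p = 0.0317), with 2 of its 4 probe sets called. Foxo1 kept the call with JG sample 1 left out but lost it with any other left out and with a pseudocount of 1. Lonp1, a mitochondrial protease that degrades the synthase, had 133 ± 49.6 in JG and 543 ± 107 in MSC (-1.94 ± 0.31, limma adjusted p = 0.0152). It lost the call when a single MSC sample, or JG sample 3, was left out. The remaining call was Clpp (1.34 ± 0.30, limma adjusted p = 0.0431), the protease partner of Clpx, with 1 of its 2 probe sets called. Clpp lost the call when any sample but JG sample 1 was left out, and with a pseudocount of 1. With dim probe sets left out, 3 of the listed regulators were called higher in JG instead of 4.

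Heme export, breakdown and scavenging showed 1 call among 13 measured genes of 14, with a median difference of 0.18. That call was higher in JG, beside 6.65% of 18193 genes called that way. Blvra, which turns biliverdin into bilirubin, read 217.38, 219.8 and 326.87 in MSC and 615.65, 722.71 and 1519.7 in JG (1.75 ± 0.40, limma adjusted p = 0.0456), and kept the call with JG sample 1 left out but lost it with any other left out. Either other pseudocount, 1 or 64, and the robust prior also ended the Blvra call. Fth1, the ferritin heavy chain that stores iron, read 7995.55, 7753.4 and 8007.15 in MSC and 10865.5, 8318.95 and 8011.58 in JG (0.18 ± 0.22) and was not called. Hmox2, the constitutive heme oxygenase, read 691.96, 360.68 and 578.56 in MSC and 674.82, 620.66 and 813.62 in JG (0.40 ± 0.30) and was not called. Hmox1, the inducible heme oxygenase, read 473.57, 343.11 and 269.7 in MSC and 129.94, 14.22 and 6.52 in JG (-2.99 ± 0.72, limma adjusted p = 0.0536). It did not pass the threshold although the groups did not overlap, and it was named after its values were seen. In this list 1 gene was called higher in MSC with median centring, dim probe sets left out, the robust prior, array weights or 1 probe set per gene. Without JG sample 1 there were 3 such genes, and the other alternatives gave none. Cd163, the haemoglobin scavenger receptor of macrophages, read 1.56, 3.37 and 4.53 in MSC and 179.05, 16.95 and 79.84 in JG (2.15 ± 0.63, limma adjusted p = 0.0878). Its highest value was in JG sample 1, where the adult beta and shared alpha intensities were the lowest of the JG group.

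Of 9 measured heme proteins and assembly factors for heme a and cytochrome c, 2 were called higher in JG. Cat, the heme enzyme catalase, had 4871 ± 375 in JG and 1155 ± 136 in MSC (2.06 ± 0.21, limma adjusted p = 0.00351), with 1 of its 2 probe sets called. Cyb5a, a microsomal cytochrome, had 2727 ± 830.2 and 929 ± 214 (1.51 ± 0.32, limma adjusted p = 0.0371), and lost the call with a pseudocount of 1 and when a single MSC sample, or JG sample 3, was left out. Over all 5 lists, 12 of 49 genes were called higher in JG and 1 higher in MSC, beside 6.65% and 6.13% of 18193 genes. Because the lists were chosen with earlier results known, nothing is read from these shares. The 13 calls became 20 without JG sample 1. Leaving out MSC sample 1, 2 or 3 gave 7, 6 or 7 calls, and leaving out JG sample 3 gave 8.

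**Figure D2:**
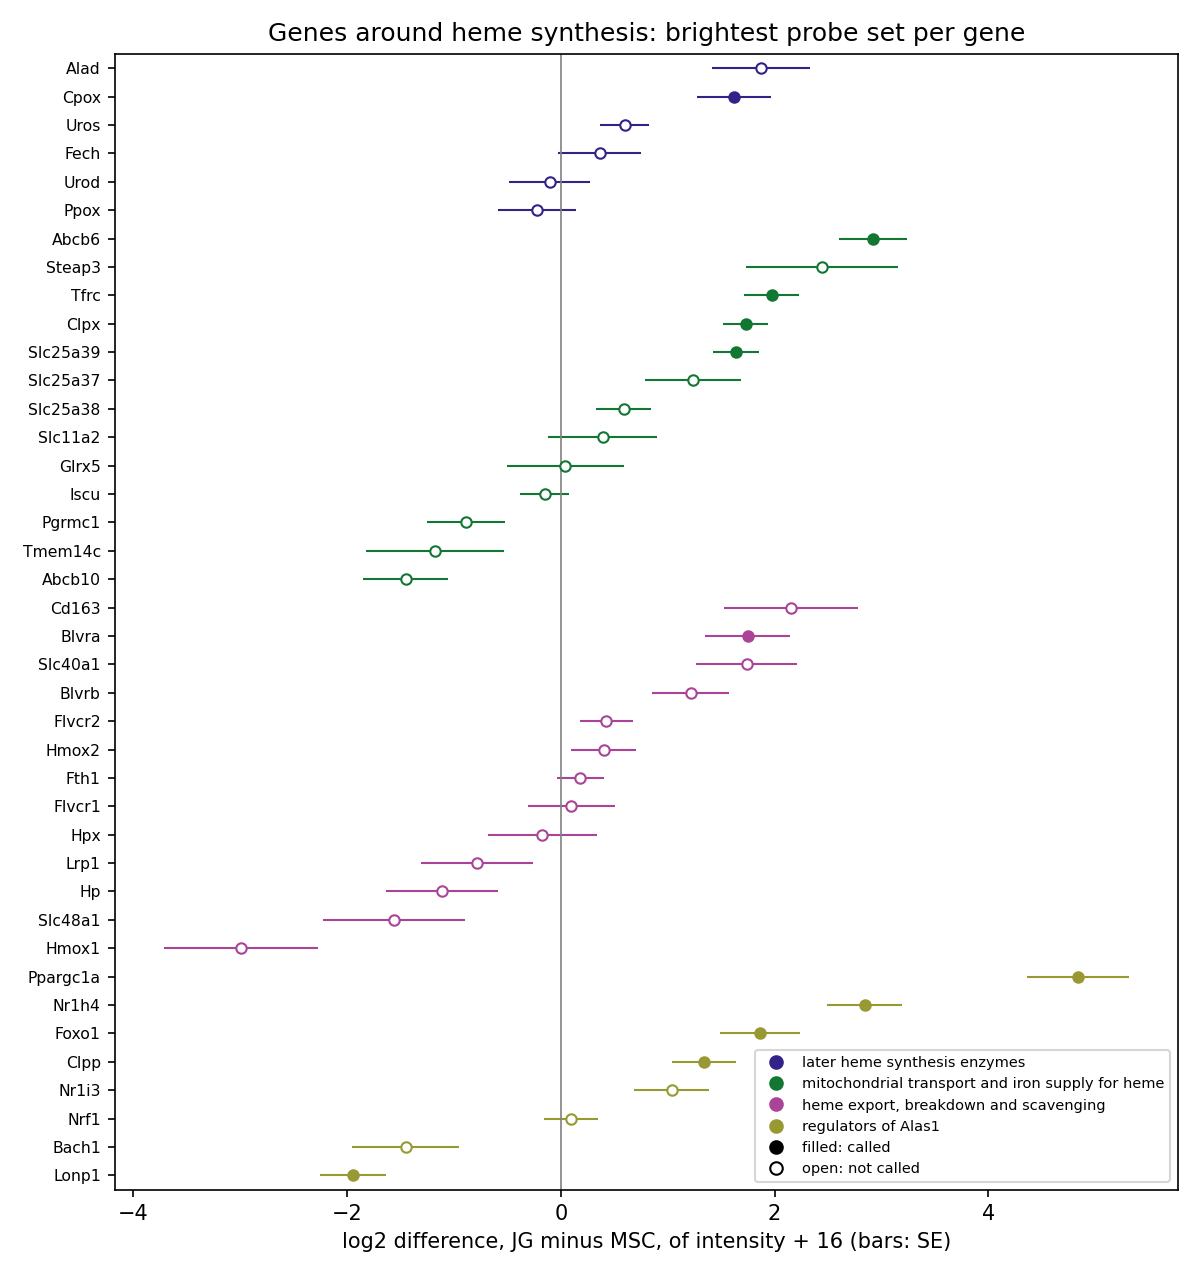
Difference JG minus MSC (log2 of intensity plus 16, bars show SE, n = 3 per group) for genes around heme synthesis, coloured by list, with filled points for called genes. Ppargc1a at 4.84 and Abcb6 at 2.92 lie farthest to the JG side among called genes, Lonp1 at -1.94 is the called gene on the MSC side, and most later synthesis enzymes have open points.

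Globins of other cells were not called. Of 8 other globin genes listed, 3 had a probe set of their own. Cygb, the cytoglobin of fibroblasts and pericytes, read 24.04, 168.14 and 10.22 in MSC and 242.64, 118.82 and 159.71 in JG (1.66 ± 0.74). Mb, the myoglobin gene, read 38.96, 26.92 and 28.52 in MSC and 11.7, 40.3 and 78.88 in JG (0.16 ± 0.46), and the groups overlapped in both. Cygb was called higher in JG without MSC sample 2 (limma adjusted p = 0.0477), whose 168.14 was the MSC value within the JG range.

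Of other transcripts of red cells, 2 passed the threshold. Of 25 erythroid markers listed, 22 were measured, 2 were called higher in JG and none in MSC, and the median difference was 0.48. For all 18193 genes, 6.65% were called higher in JG, 6.13% were called higher in MSC, and the median was 0.07. The summed intensity of the list ran from 556 to 819 in MSC and from 1320 to 2739 in JG, most of it from Tmod1, Slc4a1 and Dmtn in JG. Slc4a1, the band 3 anion exchanger of red cells, which acid-secreting intercalated cells of the kidney also make, read 1.82, 1 and 6.78 in MSC and 147.39, 598.47 and 665.34 in JG (4.43 ± 0.57, limma adjusted p = 0.00786). Dmtn, the membrane skeleton protein dematin, read 20.83, 14.95 and 18.29 in MSC and 346.66, 468.4 and 614.23 in JG (3.82 ± 0.27, limma adjusted p = 0.000927). Both kept the call with any 1 sample left out, and 1 of 3 probe sets of Dmtn and 2 of 3 of Slc4a1 were called.

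The remaining erythroid markers were mostly at the dim end. In 6 of the 22 (Rhag, Kel, Ermap, Klf1, Nfe2 and Car1) every sample was under 16, among them the erythroid transcription factor Klf1 at 3, 2.81 and 5.58 in JG. Every JG sample exceeded every MSC sample in 9 of the 22 and lay below in 0, against 20.2% and 18.7% of 18193 genes. Besides Slc4a1 and Dmtn, the 9 were Epb42, Sptb, Ermap, Tspo2, Tal1, Gfi1b and Hemgn, none of them called and none above 48.23 in any sample. The erythroid markers called higher in JG rose from 2 to 4 without JG sample 1 or with array weights, and to 3 with a pseudocount of 1. Hemgn, a nuclear protein of blood-forming cells, read 3.15, 2.01 and 5.17 in MSC and 12.18, 21.21 and 17.47 in JG (0.76 ± 0.22, limma adjusted p = 0.0844). Sptb, which encodes a protein of the red cell membrane skeleton, read 9.59, 11.39 and 1.4 in MSC and 21.25, 43.95 and 48.23 in JG (1.19 ± 0.32, limma adjusted p = 0.0712). Gata1, the master regulator of red cell genes, read 15.99, 2.52 and 12.81 in MSC and 4.35, 42.38 and 25.72 in JG. JG sample 1 was the lowest JG sample for 13 of the 22 markers, or 59.1%, against 39.3% of all probe sets. The part of red cells or their precursors in the globin intensities was not tested.

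**Figure D3:**
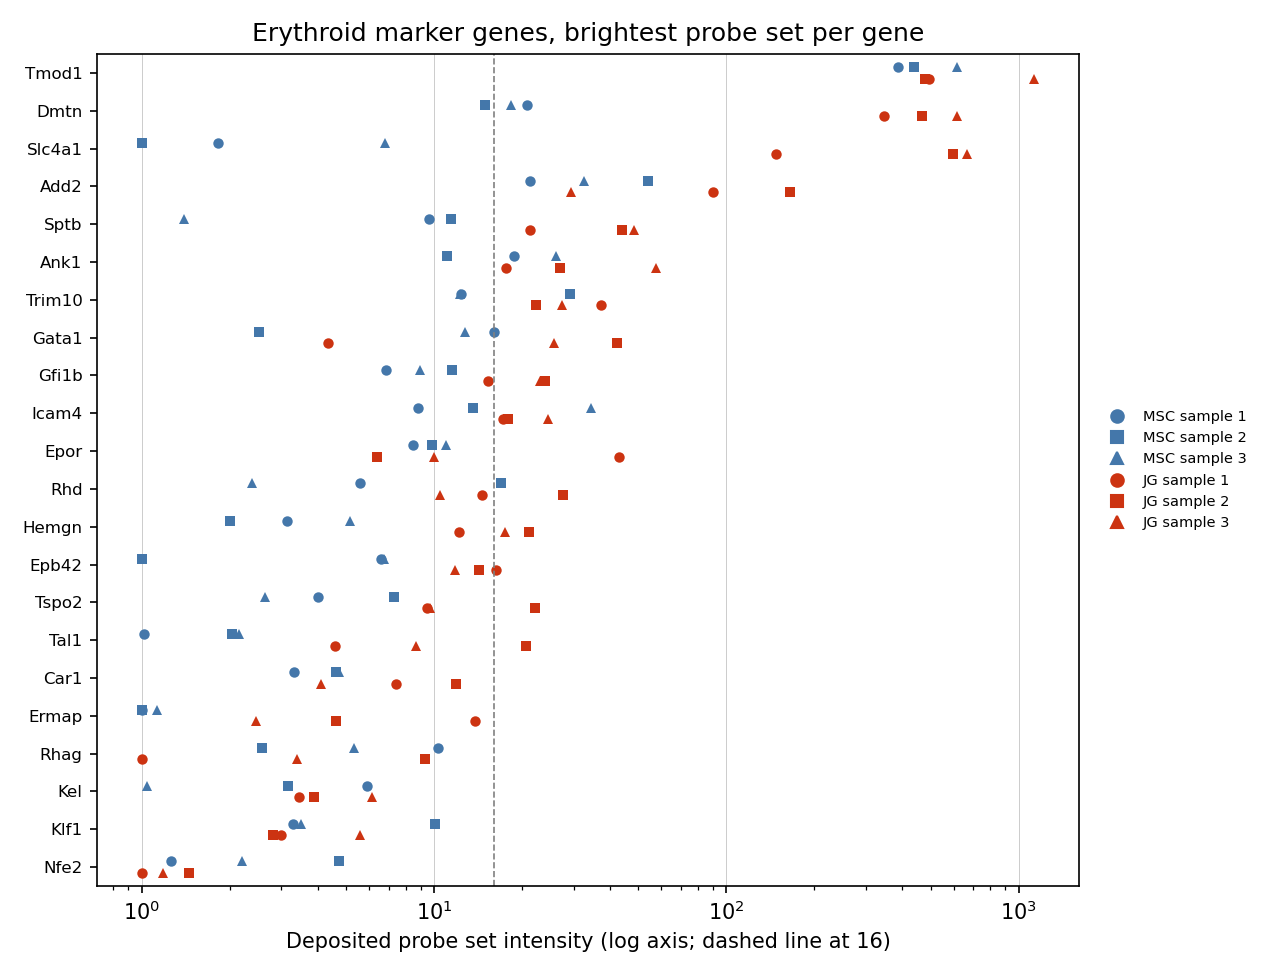
Deposited intensity on a log axis of 22 erythroid marker genes, each at its brightest probe set, ordered by JG mean, with blue for MSC, red for JG and the shape giving the sample number. Slc4a1 and Dmtn have all JG points at 147.39 or more and all MSC points at 20.83 or less, Tmod1 is bright in both groups, and the lower part of the plot holds markers under 16 on all arrays.

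Markers of other cells also differed between the groups. Beside the counts below, 6.65% of 18193 genes were called higher in JG and 6.13% higher in MSC. All 11 measured markers of the proximal tubule passed the threshold with JG higher, including Kap, Slc34a1, Slc27a2 and Slc13a3, with a median difference of 5.69 and a summed intensity of 29896 to 39028 in JG against 361 to 669 in MSC. Endothelial markers had 3 of 10 called (Tek, Esam and Cdh5) and a sum of 1156 to 1429 against 189 to 214. Esam and Cdh5 lost the call when a single MSC sample, or JG sample 3, was left out, and Cdh5 also with a pseudocount of 64. Leukocyte markers had C1qb and Ptprc called of 17, and a sum of 1297 to 3313 against 204 to 687, with 3 under 16 on all arrays. Csf1r and C1qb made up most of the leukocyte sum in JG samples 2 and 3. Csf1r was not called at its brightest probe set, while 1 of its 3 probe sets was called higher in JG.

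Of the platelet markers, Itga2b was called higher in JG among 9, beside 6.65% of 18193 genes. Their sum was 255 to 410 in JG against 134 to 214 in MSC, and Pf4 was at most 5.04 in JG. Gp1bb, a platelet adhesion receptor subunit, read 54.41, 124.03 and 67.93 in MSC and 51.29, 125.45 and 43.32 in JG (-0.18 ± 0.44) and was not called. Itga2b lost its call when a single MSC sample, or JG sample 3, was left out. C1qb lost it when MSC sample 1, MSC sample 3 or JG sample 3 was left out, and Ptprc lost it when any sample but JG sample 1 was left out. Ptprc also lost the call with quantile normalization, median centring and a pseudocount of 64, and Itga2b with a pseudocount of 1 and a robust, intensity-dependent variance prior. The part of any of these cells in the globin or Alas1 intensities was not tested. Ren1 was not analysed here, so renin itself did not check the JG label. Cd44, the antigen of the MSC sort, had 974 ± 81.9 in MSC and 139 ± 17.3 in JG (-2.68 ± 0.21), and the smooth muscle gene Acta2 was also higher in MSC (-3.09 ± 0.23). Rgs5, a pericyte gene, was higher in JG (3.79 ± 0.65), with 1 of its 4 probe sets called. Rgs5 lost the call when MSC sample 1, MSC sample 2, JG sample 2 or JG sample 3 was left out.

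Genes with the most similar profile over the 6 samples were searched among 7253 genes with a range of at least 2 on the log2 scale. For the brightest beta chain probe set (Hbb-b2, 1427866_x_at) these were Scara3, Rpain, Map3k5, Gpd1 and Nlrp6, with Pearson's r from 0.998 to 0.999. As 964 genes had an r over 0.9 with it, and the samples form 2 groups, these correlations mostly restate the difference between the groups and JG sample 1. For the brightest alpha chain probe set, which was the Hba-a2 one, they were 3110040N11Rik, 9530068E07Rik, Fam114a1, Isg20l2 and Gpnmb, with means higher in MSC. With the brightest shared alpha probe set in its place, a choice made after seeing the data, they were Ccdc92b, Rpain, Prm1, Prdm16 and Slc22a22, with means higher in JG. For Alas1 they were Tmem205, Slc52a3, Tmem171, Ptges and Tmem175, and for the dim Alas2 they were Atp8a1, Chst7, Allc, Rgs6 and Mybpc3, with r from 0.956 to 0.967.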

How the data were processed

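The deposited table holds 1 linear intensity per probe set for each of 6 Affymetrix arrays. For the authors' summary, background correction and scaling of these intensities, no method is given in the sources used here. Medians of the arrays ran from 27.3 to 36.5, and 34.4% to 41.5% of values were under 16. Arrays correlated at a mean of 0.973 within MSC, 0.854 within JG and 0.752 between groups, so JG spread limits precision. No detection calls were used, and the number of arrays limits the precision.

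Of 45037 probe sets, the platform annotation pairs 34945 with 1 gene, 932 with several and 9160 with none. The IDs of 34741 of the 34945 were found in RefSeq genes of GRCm38.p6, and 0 symbols changed. All probe sets entered log2(intensity + 16), lmFit and eBayes (limma 3.58.1, R 4.3.3), with all 6 samples, no covariate, no filter and Benjamini-Hochberg adjustment over all. List genes were represented by the single-gene probe set with the highest mean, and their calls are those of that probe set. Other probe sets were not all called, as for Tfrc (2 of 3 called), Slc13a3 (2 of 4), C1qb (2 of 3), Ptprc (1 of 2), Cdh5 (1 of 2), Cd44 (3 of 4) and Acta2 (2 of 3). Members and lists were chosen with earlier results of these data known. Of each list the text names up to 4 called genes with the largest difference, or up to 2 of the brightest where fewer were called, and every later heme enzyme. Clpp, Slc25a37, Abcb10, Hmox1, Cd163, Csf1r, Pf4, Tmod1 and the dim erythroid genes were added once their values were known. Simulated data with known changes were used to test the fit. Promoters were aligned with Biopython 1.88, and figures were drawn with matplotlib 3.10.9.

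Alternatives were other normalizations, pseudocounts, filters, variance priors, array weights, a replicate block, 1 probe set per gene and each sample left out.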

Additional observations from a re-analysis of the deposited data

How the results depend on the processing

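All 18 probe sets of the 9 genes kept the sign of their difference in every alternative that gave a value, except Hba-a1 alone (1453574_at), which lies near the floor and changed sign with quantile normalization (-0.01) and without JG sample 3. The size of the differences depended on the pseudocount. The brighter Hbb-b2 probe set (1427866_x_at) stood at 10.1 with a pseudocount of 1 and 5.49 with 64, and the shared beta probe set at 7.77 and 3.92. With probe sets under the median left out, 9 of the 18 gave no value, and 10 gave none with 1 probe set per gene.

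The probe sets called over the whole array numbered 4413. The count was 10426 with array weights, 1603 with the replicate block and 1449 to 10177 with 1 sample left out, and 2803 of 18193 genes were called with 1 probe set per gene. The 13 heme pathway list counts became 24 with array weights, 5 with the replicate block and 6 to 20 with 1 sample left out. Same-numbered samples of the groups did not deviate together (r of their deviations -0.20, -0.01 and -0.01), so the replicate number is only a number. The block left 6 of the 8 called globin and Alas probe sets called, and the calls lost were those of Alas1 (1455282_x_at) and the second Hbb-b2 probe set (1427865_at). Among the named genes other than Clpp, Cpox, Tfrc, Clpx, Slc25a39, Blvra, Lonp1, Cyb5a, Itga2b, Ptprc, Cdh5 and Rgs5 lost the call with the block. Of the 4 regulators of Alas1 called higher in JG, Clpp among them, 3 kept the call with the block. Uncalled genes near 0 changed sign: Urod with quantile normalization (0.061) and array weights (0.29), and between -0.48 and 0.19 with 1 sample left out; Ppox with array weights (0.056); Gp1bb between -0.57 and 0.10 and Mb between -0.26 and 0.63 with 1 sample left out. The cause of these changes was not tested.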
